A study of Sus scrofa with 4 samples.

Results

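Metallothionein, zinc transporters and iron handling genes were followed through adipogenic differentiation of porcine intramuscular preadipocyte (PIP) cells and through stimulation of porcine mature adipocytes (pMA) with serotonin or TNF-α. The list held 9 genes, namely MT1A, MT3, SLC30A1, SLC39A8, SLC39A14, SLC40A1, FTH1, FTL and TFRC, and its members were taken as the non-control probes whose gene name in the array files equals the symbol. By that rule 6 genes were found, with 18 probes. MT3 is carried as MT-III in the files and was added through its RefSeq accession, which gave 7 genes with 20 probes, out of 34853 gene names and 43603 probes on the array. SLC39A8 and SLC40A1 are not analysed here. The list was selected on log2 ratios between these same arrays, seen in an earlier analysis, so the values below are a description and carry no test.

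The study hybridised 1 porcine array per condition. Its methods mention pooling of RNA within a group, but in a passage on a mouse array. The passage on the porcine array speaks of each sample and does not mention pooling. The PIP array holds undifferentiated cells of a preadipocyte line that was derived from marbling muscle of a single female Duroc pig, kept without stimulation. The pMA array holds the same line after 4 days in differentiation medium with insulin, dexamethasone, octanoate and oleate, also without stimulation, and the other arrays hold such pMA after 12 h with 100 μM serotonin (written per ml in the labels) or with 2.5 μg/mL TNF-α. All cells therefore come from 1 line, and the 3 arrays of pMA share the differentiation medium. In a separate assay on these adipocytes, the paper reports significant cell death that rose with the dose of serotonin. The part of cell death in the values of the serotonin array was not tested.

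All 4 arrays lay on 1 slide, and their 75th percentile of intensity lay between 479 and 566. The share of probes well above background was 56.5% in PIP cells, 56.5% in pMA, 60.9% after serotonin and 66.0% after TNF-α. Adipocyte markers were only partly present. Of 10 on the array, 7 were well above background in PIP cells, 7 in pMA, 7 after serotonin and 8 after TNF-α, with ADIPOQ, PLIN1 and CEBPA not well above background in pMA, while CD36 had a log2 level of -3.99 in PIP cells and 1.18 in pMA. Muscle markers were also only partly present, with 4 of 6 well above background on each array. The myogenic factors MYOD1 and MYF5 were not well above background on any array. The level of ACTA1, skeletal muscle actin, was 9.31 in PIP cells, 9.33 in pMA, 7.40 after serotonin and 9.22 after TNF-α. This is the brightest of its 16 probes, and the others are not given here. The log2 of the summed levels of the adipocyte markers was 0.98 in PIP cells, 2.48 in pMA, 4.17 after serotonin and 3.53 after TNF-α. That of the muscle markers was 9.33, 9.36, 7.45 and 9.25, close to the levels of ACTA1 alone. The brightest probes weigh most in such sums, and the adipocyte markers did not move together. After serotonin the log2 ratios to pMA were 2.41 for LPL, 1.47 for CD36 and -2.77 for FABP4. CIDEC, LEP, PPARG and DGAT2 had 0.27, 0.16, -0.08 and -0.27. Of 6 preadipocyte markers 4 to 6 were well above background, of 4 endothelial markers 2 to 3, of 4 epithelial markers 1 to 3, and CD14 was the single leukocyte marker matched. The part of these shifts in the results below was not tested. In RNA of whole cultures, fewer cells of a type and less RNA per cell cannot be told apart.

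Metallothioneins are small cysteine-rich proteins that bind zinc and copper and buffer the free pool of these metals. Their genes are known to respond to zinc through the transcription factor MTF1, and also to glucocorticoids, oxidants and inflammatory cytokines. Zinc leaves the cell through transporters of the SLC30 family and enters through those of the SLC39 family, some of which also carry iron. Iron enters with transferrin through the transferrin receptor, is stored in ferritin built of heavy and light chains, and leaves through ferroportin, with ferritin translation and transferrin receptor mRNA stability set by the iron regulatory proteins.

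Values are given as log2 levels, the log2 of a probe's intensity over the 75th percentile of its array, so that a level of 0 lies at that percentile. Levels of different probes cannot be compared. A ratio is the difference of 2 log2 levels of the same probe. Feature Extraction, the scanner software, gives each spot an error, which came to 0.14 for a log2 level and 0.20 for a log2 ratio of a bright probe, and repeated spots within an array scattered with a standard deviation of 0.11 to 0.15. Both cover the noise of spots, not that between cultures. Of the 20 probes, 19 were well above background on all 4 arrays, and the exception was the TFRC probe in pMA.

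MT1A was the member with the highest ratio after either stimulus. It encodes metallothionein 1A. Its 2 probes start at bases 309 and 311 of the same transcript and overlap, so they are not independent readings. Stretches of 30 bases from both are shown because they carry the main difference among the members, and the capital marks the place where the pair differs.
MT1A probe starting at base 311: tgctacatccctttttcttgaaatatgtga
MT1A probe starting at base 309: tgctacatccctttttctGtgaaatatgtg

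The MT1A probe starting at base 309 had an intensity of 304 in PIP cells, 199 in pMA, 3937 after serotonin and 3222 after TNF-α. The MT1A probe starting at base 311 read 293, 198, 3530 and 2653 in the same order. PIP cells and pMA thus lay low and close together, and both stimulated arrays lay far above them. On the log2 scale the levels of the probe at base 309 were -0.76, -1.26, 2.80 and 2.53, and those of the probe at base 311 were -0.82, -1.27, 2.64 and 2.25.

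Against unstimulated pMA, MT1A was 16.7-fold and 15.1-fold higher after serotonin by its 2 probes, with log2 ratios of 4.06 and 3.91. After TNF-α it was 13.8-fold and 11.4-fold higher, with log2 ratios of 3.79 and 3.52. Among all gene names with a ratio, MT1A stood at place 4 of 19095 after serotonin and at place 14 of 19782 after TNF-α, counted from the highest. Both comparisons use the same array of unstimulated pMA, so an unusual reading on that array would enter both. Any difference from that array in culture time or handling would enter both as well. The scaled MT1A levels in PIP cells, which were not part of those ratios, were 1.42-fold and 1.37-fold those in pMA, with log2 ratios of pMA to PIP cells of -0.50 and -0.45. Serotonin and TNF-α differed from each other by 0.27 and 0.40 with an error of 0.20, a difference that has no replicate behind it. Over the processing settings the log2 ratio of MT1A lay between 3.66 and 4.17 after serotonin and between 3.38 and 3.86 after TNF-α.

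**Figure D1:**
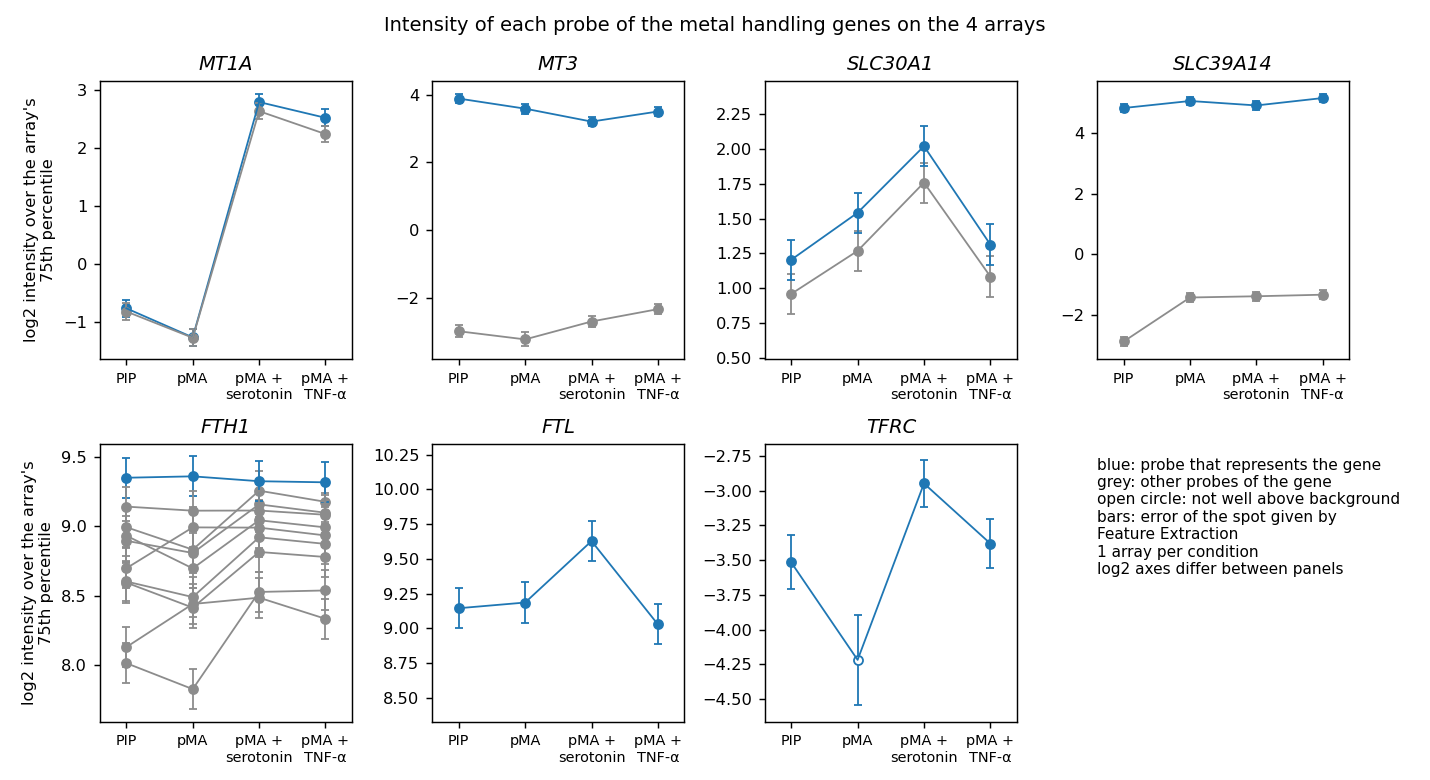
Log2 intensity over the 75th percentile of the array (vertical axes, which differ between panels) for every probe of the 7 genes in PIP cells, pMA, pMA with serotonin and pMA with TNF-α. Bars are the spot error of Feature Extraction and there is 1 array per condition; both MT1A probes lie between -1.27 and -0.76 without stimulation and between 2.25 and 2.80 with it.

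MT3 did not share the pattern of MT1A. Metallothionein 3 is best known from the brain, where it was described as a growth inhibitory factor. The probes of MT3 are annotated to different transcripts, so their base positions cannot be compared. Its probe starting at base 317 had log2 levels of 3.88 in PIP cells, 3.59 in pMA, 3.21 after serotonin and 3.50 after TNF-α, and was thus lowest after serotonin. Its probe starting at base 255 had log2 levels of -2.97, -3.21, -2.68 and -2.32 in the same order, with the highest after TNF-α. The log2 ratios to unstimulated pMA after serotonin were -0.38 at base 317 and 0.53 at base 255. After TNF-α they were -0.08 and 0.89, so the probes disagreed in sign for either stimulus. The dimmer probe has an error of 0.26 on a log2 ratio, against 0.20 for the brighter one. No ratio of MT3 reached 2-fold.

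The bright MT3 probe shares 24 bases with a probe that the files name TC592632 and describe by a metallothionein 3 of yak. The capitals mark these shared bases, which are shown because the brighter MT3 probe is not alone in carrying them.
MT3 probe starting at base 317: agcCACTGGCAAGTGACAATAAATCCTgtg
TC592632 probe: aggCACTGGCAAGTGACAATAAATCCTatg

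TC592632 had log2 levels of 2.75 in PIP cells, 2.42 in pMA, 2.06 after serotonin and 2.23 after TNF-α. Its log2 ratios were -0.36 after serotonin and -0.19 after TNF-α, beside -0.38 and -0.08 for the bright MT3 probe. The part of the shared bases in these readings was not tested. The MT1A probes share no stretch of 20 bases with any probe but each other.

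SLC30A1, the zinc exporter ZnT1 of the plasma membrane, was highest on the serotonin array by both of its probes. The probe starting at base 1441 had log2 levels of 1.20 in PIP cells, 1.54 in pMA, 2.02 after serotonin and 1.31 after TNF-α. The probe starting at base 1432, which overlaps it, had 0.96, 1.27, 1.76 and 1.08. Against unstimulated pMA the log2 ratios were 0.48 and 0.49 after serotonin (1.39-fold and 1.41-fold) and -0.23 and -0.18 after TNF-α. The ratio between serotonin and TNF-α was 0.71 and 0.68, larger than the error of 0.20 but short of 2-fold. These signs held under all settings tried, which gave 0.47 to 0.58 for serotonin and -0.31 to -0.16 for TNF-α.

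SLC39A14 encodes ZIP14, which imports zinc and iron that is not bound to transferrin. Its probes are annotated to different transcripts, so their base positions cannot be compared. They disagreed on differentiation. The probe starting at base 2407 had log2 levels of 4.84 in PIP cells, 5.08 in pMA, 4.93 after serotonin and 5.17 after TNF-α, whereas the probe starting at base 1607 had -2.89, -1.43, -1.39 and -1.34. By the latter SLC39A14 was 2.74-fold higher in pMA than in PIP cells (log2 ratio 1.46), and by the former 1.18-fold (0.23). After serotonin the log2 ratios were -0.15 and 0.04, and after TNF-α 0.10 and 0.09, all within the spot error of 0.21 or less. Both probes therefore placed the stimulated arrays near unstimulated pMA.

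The probe starting at base 2407, which stands for the gene because it is brighter, holds a word of 17 bases. With either strand counted, 4 probes of other names also hold it, so 5 of 43603 probes in all (0.0115%). The length was chosen after the sequence had been read, and of the words of that length this one is held by the most probes. The word is in capitals, and a stretch of the other probe is given for comparison with no capitals.
SLC39A14 probe starting at base 2407: gaacctGACTAGTATCCATGAGGttgtgga
SLC39A14 probe starting at base 1607: actgtattcctgcattcgaacgtcggctgt

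One of the 4 other probes belongs to ERCC1, a DNA repair gene, with a log2 ratio of pMA to PIP cells of 0.33, and after serotonin and TNF-α of -0.17 and -0.01. The others had log2 ratios of pMA to PIP cells of 0.30, 0.25 and 0.84. Whether the brighter SLC39A14 probe reads RNA other than that of SLC39A14 was not tested.

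FTH1, the ferritin heavy chain with the ferroxidase site, had 10 probes on a single transcript, and their values differed. The brightest one, starting at base 704, had log2 levels of 9.35 in PIP cells, 9.36 in pMA, 9.33 after serotonin and 9.32 after TNF-α, nearly level across the conditions. The probe starting at base 174 had 8.01, 7.82, 8.53 and 8.54. By this probe FTH1 was 1.63-fold higher after serotonin and 1.64-fold higher after TNF-α, with both stimulated arrays above both unstimulated ones.

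The 6 FTH1 probes with starts from base 174 to base 614 had log2 ratios of 0.35 to 0.70 after serotonin (median 0.41) and of 0.29 to 0.71 after TNF-α (median 0.36). The 4 probes with starts from base 704 to base 756 had -0.04 to 0.05 after serotonin and -0.11 to -0.03 after TNF-α. The ranges of the 2 sets do not overlap, although the boundary at base 700 was drawn after the values had been seen. With quantile normalization the brightest probe moved to 0.19 after serotonin. The parts of position and brightness of the probes were not tested. For pMA over PIP cells the first set lay from -0.24 to -0.09 and the second from -0.03 to 0.31, signs that turn with the scaling. Over all 10 probes the log2 ratio was positive in 8 after serotonin and in 6 after TNF-α. No FTH1 probe reached 2-fold, and none of the spots was saturated. Probes overlap within both sets and are not independent readings. In the first set, those starting at bases 464, 469, 483 and 521 each share a stretch of 20 bases with another of them. The probes of the second set also share stretches of sequence, as shown for a pair of them, where the capital marks the base unlike the first line.
FTH1 probe starting at base 704: tcaccttttctataagtcctaccagaacat
FTH1 probe starting at base 726: tcaccttttctataagtcctaccaAaacat

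**Figure D2:**
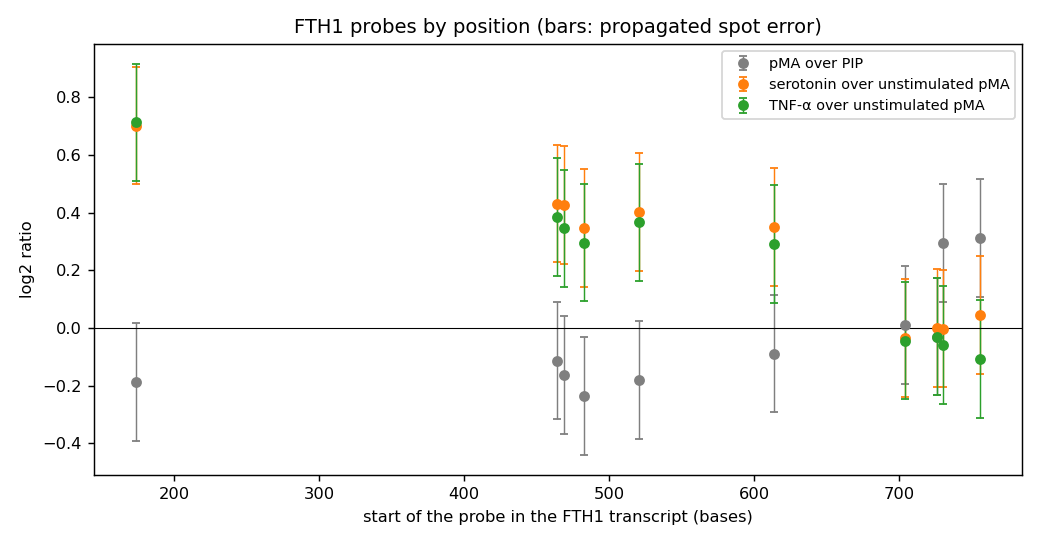
Log2 ratio (vertical axis) of the 10 FTH1 probes against the start of the probe in the transcript in bases (horizontal axis), for pMA over PIP cells, serotonin over unstimulated pMA and TNF-α over unstimulated pMA. Bars are the propagated spot error of 0.20; the 6 probes up to base 614 lie between 0.29 and 0.71 for both stimuli, and the 4 from base 704 on lie between -0.11 and 0.05.

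FTL, the ferritin light chain, was measured by 1 probe and was highest on the serotonin array. Its log2 levels were 9.14 in PIP cells, 9.19 in pMA, 9.63 after serotonin and 9.03 after TNF-α. The log2 ratio was 0.44 after serotonin (1.36-fold) and -0.16 after TNF-α. Serotonin exceeded TNF-α by 0.60 (1.52-fold), with an error of 0.20. Over the settings serotonin gave 0.44 to 0.65 and TNF-α gave -0.24 to -0.01.

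TFRC, transferrin receptor 1, was close to background. Its only probe, starting at base 2303, had intensities of 45.0 in PIP cells, 25.7 in pMA, 73.3 after serotonin and 53.7 after TNF-α, with log2 levels of -3.52, -4.22, -2.95 and -3.38. The pMA spot was not well above background, but its level lay above the faintest well-measured signal of that array (-4.64). Its value was therefore kept as read, and the ratios are plain ratios to a dim spot, not bounds. Relative to unstimulated pMA, TFRC was 2.41-fold higher on the serotonin array and 1.79-fold higher on the TNF-α array. It was 1.63-fold lower in pMA than in PIP cells. The signs held under another background correction (normexp with an offset of 50), but the sizes did not, with log2 ratios of 0.24 after serotonin, 0.12 after TNF-α and -0.12 for pMA over PIP cells. TFRC thus passed 2-fold after serotonin by a ratio to a spot not well above background, and fell short of it with normexp.

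By the probe that stands for the gene, 0 of the 7 genes was called at 2-fold or more between pMA and PIP cells. TFRC was 1.63-fold lower by a pMA spot not well above background. Of 18633 gene names 13.5% passed this cutoff of the methods, 9.94% higher and 3.56% lower in pMA. The median log2 ratio of pMA to PIP cells was 0.01 for the 7 genes and 0.12 for all gene names. This comparison moved with the scaling, because the median of all gene names was -0.22 after scaling to the array median and 0.52 after scaling to bright spike-in controls. The sign of FTH1, FTL, MT3, SLC30A1 and SLC39A14 flipped between such scalings. MT1A (-0.85 to -0.12) and TFRC (-1.05 to -0.12) were lower in pMA than in PIP cells under all settings that gave a value.

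After serotonin 2 of the 7 genes, MT1A and TFRC, were at least 2-fold higher than in unstimulated pMA and none was lower, where 6.82% of 19095 gene names passed, 2.08% higher and 4.73% lower. The median log2 ratio was 0.44 for the 7 genes and 0.01 for all gene names. After TNF-α 1 of the 7 genes, MT1A, was called, and the ratio of TFRC (1.79-fold) fell short of the cutoff. Of 19782 gene names 3.56% passed, 2.21% higher and 1.34% lower. The medians were -0.04 and 0.01. Between serotonin and TNF-α, 0 of the 7 genes passed, where 6.9% of 21862 gene names did, 1.83% higher and 5.07% lower after serotonin. SLC30A1 and FTL had the highest ratios of serotonin to TNF-α. The list was drawn up with these ratios in view, so the counts support nothing about the genes as a group.

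**Figure D3:**
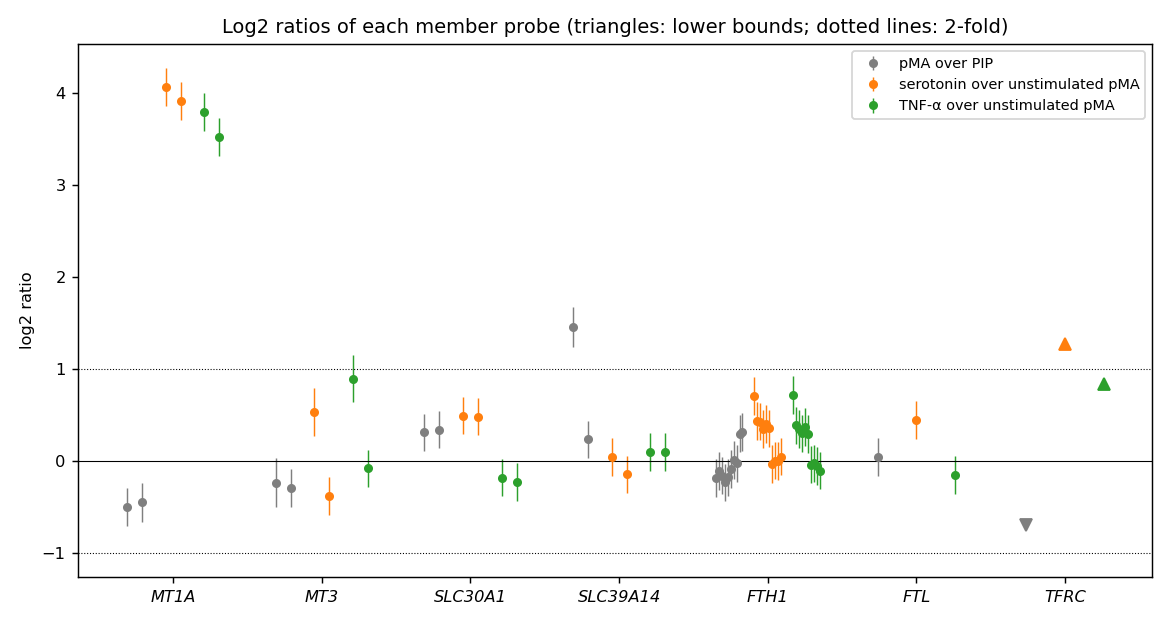
Log2 ratio (vertical axis) of each probe of the 7 genes (horizontal axis) for pMA over PIP cells, serotonin over unstimulated pMA and TNF-α over unstimulated pMA. Bars are the propagated spot error and dotted lines mark 2-fold. Triangles (titled lower bounds) are ratios with 1 spot not well above background. The MT1A probes lie between 3.52 and 4.06 for both stimuli, and the SLC39A14 probes lie apart, at 0.23 and 1.46, for pMA over PIP cells, a comparison in which the sign of the brighter probe turned with the scaling.

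The gene symbols with profiles most like that of MT1A were sought among 4632 symbols whose probe was well above background on all 4 arrays, by the Euclidean distance between log2 levels centred on their mean over those arrays. The nearest was CXCL2, a chemokine that attracts neutrophils, at a distance of 0.98, with log2 levels of -2.38 in PIP cells, -3.16 in pMA, -0.09 after serotonin and 0.11 after TNF-α. SLC46A2, a solute carrier, followed at 1.35 with log2 ratios to unstimulated pMA of 2.41 after serotonin and 3.58 after TNF-α. IL1A, the cytokine interleukin 1 alpha, stood at 1.37 with 3.79 and 2.28. NFKBIA, an inhibitor of NF-κB, stood at 1.50 with 1.97 and 3.04. NR4A2, an orphan nuclear receptor, stood at 1.66 with 2.81 and 2.22. These distances rest on 4 arrays that all the genes share, and the log2 ratios of serotonin to TNF-α were 1.51 for IL1A, -1.16 for SLC46A2 and -1.07 for NFKBIA, beside 0.27 for MT1A.

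Other genes of zinc, iron, haem and copper handling were taken from a list of 87, of which 53 were on the array (48 by symbol and 5 by accession). For pMA over PIP cells 46 had a ratio, and 4 were at least 2-fold higher and 1 lower, beside 9.94% and 3.56% of all gene names, with a median log2 ratio of 0.31 beside 0.12. After serotonin 1 of 46 was higher and 2 were lower, beside 2.08% and 4.73% of all gene names, with a median of 0.07 beside 0.01. After TNF-α 2 of 46 were higher and none lower, beside 2.21% and 1.34%, with a median of -0.05 beside 0.01. Between the stimuli 1 of 48 was higher and 3 were lower after serotonin, beside 1.83% and 5.07%, with a median of -0.02 beside -0.04. These counts lie near the shares over all gene names and say nothing particular of the list.

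Of the zinc transporters other than the members, 9 of the exporter and vesicle family and 4 importers were on the array, and none was called at 2-fold in any comparison by the probe that stands for the gene. For pMA over PIP cells SLC30A2 was 1.87-fold higher against a PIP spot not well above background. Its log2 ratio (0.34 to 1.28), that of SLC30A9 (0.59 to 1.32), that of SLC39A4 (0.33 to 1.06) and that of SLC30A6 (-1.03 to -0.30) lay on both sides of 2-fold over the scalings. After serotonin the 7 exporters with a ratio ranged from -0.35 to 0.39 and the 4 importers from -0.35 to 0.37. After TNF-α the ranges were -0.45 to 0.07 and -0.44 to 0.33. The dimmer probe of SLC30A4 had 0.51 after serotonin, beside 0.48 and 0.49 for the probes of SLC30A1. MTF2, named after metal response elements, was the single gene matched in the list's group of metallothionein and zinc sensing. Its log2 ratio was 0.25 after serotonin. MTF1 and the further metallothioneins of that group were not matched, so zinc sensing was not covered.

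Among 11 genes of iron uptake and reduction, 3 passed 2-fold in at least 1 comparison. STEAP3, the reductase that acts on iron released from transferrin in endosomes, had log2 levels of -3.54 in PIP cells, -1.57 in pMA, -1.94 after serotonin and 0.10 after TNF-α. It was thus lowest in PIP cells and highest after TNF-α, with a log2 ratio of 1.98 for pMA over PIP cells, 1.67 for TNF-α over pMA and -2.05 for serotonin over TNF-α. LCN2, lipocalin 2, which binds bacterial siderophores that carry iron, was dim in PIP cells (not well above background), so its ratio of pMA to PIP cells is uncertain. The ratio was 4.37-fold by the brighter probe and 3.66-fold by the dimmer one. On the log2 scale that of the brighter probe moved between 0.67 and 2.51 over the scalings. Its log2 levels in pMA, after serotonin and after TNF-α were -2.97, -4.04 and -2.85. The log2 ratio of LCN2 for serotonin over pMA was -1.06 and lay between -1.07 and -0.58 over the scalings, so on both sides of 2-fold. For TNF-α over pMA it was 0.13. The paper, in contrast, lists LCN2 as upregulated after both stimuli. SLC22A17, described as a receptor of lipocalin 2, had 4.83, 4.84, 3.45 and 4.31 over the 4 arrays, and its 3 probes gave -1.39 to -0.68 after serotonin. SLC11A2, the iron importer DMT1, had 0.61 after serotonin and 0.50 after TNF-α, and the ferric reductase CYBRD1 had 0.54 and 0.68, all short of 2-fold.

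**Figure D4:**
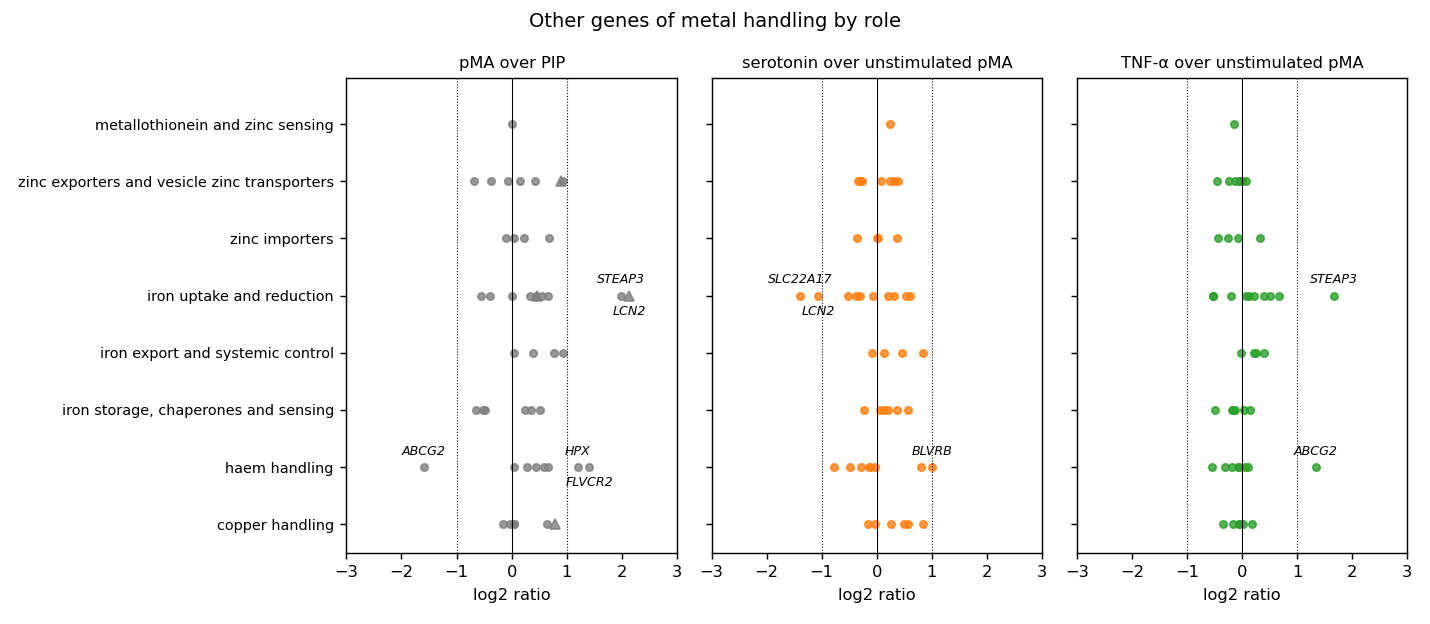
Log2 ratio (horizontal axes) of the other metal handling genes by role (rows) for pMA over PIP cells, serotonin over unstimulated pMA and TNF-α over unstimulated pMA. Each point is a gene, triangles are ratios with 1 spot not well above background, and dotted lines mark 2-fold with the genes past it named. Points of zinc transporters lie within the dotted lines, 1 of them (SLC30A2 for pMA over PIP cells) as a triangle at 0.90. STEAP3 and ABCG2 lie past 2-fold after TNF-α, at 1.67 and 1.34.

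Among the genes that sense and store iron, IREB2, the iron regulatory protein 2, had log2 levels of 2.45 in PIP cells, 1.93 in pMA, 2.51 after serotonin and 1.77 after TNF-α. Its 2 probes gave 0.57 and 0.48 after serotonin and -0.16 and -0.26 after TNF-α. ACO1, the iron regulatory protein 1, had 0.37 and 0.04 after the same stimuli. None of the 6 genes of this group, which holds NCOA4 (the receptor that brings ferritin to lysosomes) as well, was called at 2-fold.

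In haem handling, HMOX1, the inducible haem oxygenase that frees iron from haem, had log2 levels of 6.17 in PIP cells, 6.61 in pMA, 7.41 after serotonin and 6.72 after TNF-α. Its 3 probes gave 0.81 to 1.04 after serotonin and 0.11 to 0.27 after TNF-α. For pMA over PIP cells they ranged from 0.20 to 1.28, the highest by the dimmest probe. BLVRB, a biliverdin reductase that acts downstream of haem oxygenase, had 4.74, 5.02, 6.03 and 4.71 and a log2 ratio of 1.01 after serotonin, which lay between 0.98 and 1.13 over the scalings and so on both sides of 2-fold. ABCG2, an exporter that also carries porphyrins, had 3.54, 1.95, 1.82 and 3.29. All 4 of its probes were lower in pMA than in PIP cells (-1.59 to -0.68) and higher after TNF-α (1.05 to 1.34). HPX and FLVCR2, a haem carrier of plasma and a haem transporter, had log2 ratios of pMA to PIP cells of 1.20 and 1.41. The 2 FLVCR2 probes with a ratio ranged from 0.27 to 1.41. Over the scalings HPX lay between 0.71 and 1.58 and FLVCR2 between 0.99 and 1.79, so on both sides of 2-fold.

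None of the 6 copper genes was called at 2-fold by the probe that stands for the gene. For pMA over PIP cells, however, the dimmer probe of ATP7A, a copper exporter, had a log2 ratio of 1.78 (3.43-fold) and the brighter one -0.16, and ATP7B is known only as a bound, at least 1.73-fold higher. SLC31A1, the copper importer, carried as CTR1 in the files, had log2 ratios of 0.83 with serotonin and -0.05 with TNF-α. ATP7A had 0.50 and -0.34 by its brighter probe, and CCS, the copper chaperone of superoxide dismutase, had 0.57 and 0.18. These values lay between 0.33 and 0.94 over the scalings for SLC31A1 after serotonin.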

How the data were processed

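The deposited intensities came from 1 color (Cy3) porcine arrays read by Agilent Feature Extraction 10.7.3.1, per the file headers, whose processed signal is background-subtracted. A second deposited table, made by the authors, held the same signals as a ratio to 1 constant per array. The methods describe other arrays in part, and no genome build is given in the sources used here, so no coordinates are printed. Control spots and spots marked as outliers (1 to 12 per array) were left out, repeated spots were averaged, and intensities were placed on a log2 scale minus the 75th percentile of the array. The probe with the highest mean level stood for its gene. Where 1 of the compared arrays was dim, its value was raised, if lower, to the faintest well-measured signal of that array, which gives a lower bound. A dim value already above that signal, as for TFRC, LCN2 and SLC30A2, was kept, and the ratio is then not a bound. With 1 array per condition no test was made, and the cutoff was 2-fold. The named genes were all members, list genes past 2-fold and up to 3 bright ones per role, and the 5 symbols nearest to MT1A. The members and lists were chosen with earlier results of these data known. Symbols were matched through the files and RefSeq tables (Sscrofa11.1, names only). The ratio rule was tested on simulated data in which every dim value lay below the faintest well-measured signal. Cases such as TFRC in pMA were therefore not covered. Python 3.11.15, numpy 2.4.6, pandas 2.3.3, matplotlib 3.10.9, R 4.3.3 and limma 3.58.1 (normexp, quantile) were used. The number of arrays limits the precision.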

Additional observations from a re-analysis of the deposited data

How the results depend on the processing

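No paired analysis was possible because each condition has 1 array. In all, 10 alternative settings were tried, 1 of them (the dimmest probe stands for a member) chosen after seeing the data. Of 248 member ratios recomputed, 209 were classed as the same and 39 as moved. Many of them could not move, because the filters on dim probes only keep or drop a ratio. FTL and TFRC, with 1 probe each, also could not move with the choice of probe. The share is therefore no measure of stability. For the members, the count past 2-fold in pMA against PIP cells was 0 and became 1 with quantile normalization and 1 with median scaling (TFRC, lower in both), and 1 with the dimmest probe (SLC39A14, higher). After serotonin it was 2 and became 1 with normexp, with a requirement for signal on all 4 arrays and at a 4-fold cutoff. For the other metal handling genes, the count in pMA against PIP cells was 5 and became 14 after scaling to spike-in controls, 2 with normexp and 1 at 4-fold. After serotonin it was 3 and became 1 with normexp and 0 at 4-fold. After TNF-α it was 2 and became 0 at 4-fold, and between the stimuli it was 4 and became 1 at 4-fold. The cause of these moves was not tested beyond what each setting changes by construction. The share of gene names past 2-fold that were higher in pMA than in PIP cells was 73.6% as reported, 34.1% after scaling to the median, 54.7% after quantile normalization and 93.0% after scaling to spike-in controls. After TNF-α it was 62.2% as reported, 49.3% with quantile normalization and 50.2% with median scaling. With 1 array per condition, signal over background limits TFRC most, since its pMA spot was not well above background.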

Other observations

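Probes of other names that resemble ferritin were also on the array. LOC100154515, annotated as similar to the ferritin heavy chain, had log2 levels of 7.60 in PIP cells, 7.50 in pMA, 8.11 after serotonin and 8.05 after TNF-α, so that both stimulated arrays lay above both unstimulated ones, with log2 ratios to unstimulated pMA of 0.60 and 0.55. TC602524, described likewise, had 7.49, 7.29, 7.96 and 7.85. TC584091, described by a ferritin light chain, had -4.05, -3.60, -3.15 and -3.52. TC584613, described by a mitochondrial ferritin, had -2.60, -3.10, -2.88 and -3.06. Their ratios were not set against those of FTH1 and FTL by a test.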
